A study of Mus musculus with 5 samples.

Results

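Tenocyte-like stromal cells were described within 4 mouse epithelioid sarcomas profiled by droplet-based single-cell RNA sequencing. They were chosen in steps from the deposited counts of unique molecular identifiers (UMIs, 1 per captured transcript). Cells were kept if 500 or more genes were detected and mitochondrial genes gave at most 10% of UMIs. Those with fewer than 5 UMIs of the pericyte gene Rgs5 per 10000 and at least 4 UMIs summed over Ddah1, Wisp1, C1qtnf7 and Fbn2 were taken as stroma. Stromal cells with at least 1 UMI for 3 or more of Tnmd, Scx, Mkx, Fmod, Thbs4, Kera, Chodl and Cilp2 were the tenocyte-like cells. Stromal cells with none or 1 of these 8 genes served as the comparison within each library and are called the other stroma. The rule found 580 tenocyte-like cells among 29412 kept sarcoma cells (1.97%) and 37519 kept cells of the series.

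All mice were C57BL/6J, and both copies of Hic1, a marker of mesenchymal progenitors, carried a tamoxifen-activated Cre recombinase (Hic1CreERT2/CreERT2), so that no group had an unmodified Hic1 locus. The 4 sarcoma libraries came from animals with 2 copies of the Cre-dependent red reporter (Rosa26LSLtdTomato) and floxed alleles at both copies of Smarcb1, the SWI/SNF subunit gene lost in epithelioid sarcoma. The tumours are numbered by library and grew at the shoulder (sarcoma 1), head (sarcoma 2), head/ear (sarcoma 3) and hip (sarcoma 4). All 4 were collected at endpoint. The 1 muscle library held tdTomato-positive mesenchymal progenitors of quiescent hindlimb muscle, from a mouse with 1 reporter copy and no floxed Smarcb1 allele. Animals received 2.5 mg tamoxifen in 100 uL oil on each of 5 days at 8 weeks of age, and the stated washout was 10 days. Cells were purified by flow sorting, and a cell outside the Hic1 lineage could be present only if it passed that sort. Whether each tumour came from its own animal is not stated, so a p-value reflects the spread between the libraries alone, part of which may be technical.

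Tendon is built by tenocytes, fibroblasts that lay down parallel bundles of type I collagen. The transcription factors Scx (scleraxis) and Mkx (mohawk) drive the tenocyte programme, and the membrane protein tenomodulin (Tnmd) is its best known late marker. Fibromodulin (Fmod) and keratocan (Kera), small leucine-rich proteoglycans, set collagen fibril size, and thrombospondin 4 (Thbs4) organises the matrix of tendon and the muscle attachment. Cilp2 is a cartilage intermediate layer protein, and Chodl is a membrane protein of the C-type lectin family.

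The promoters of 2 of these genes are shown, because the basic helix-loop-helix factor scleraxis binds E-boxes. Both genes lay far above the other stroma in the tenocyte-like cells of sarcomas 1 to 3, but both were used to choose those cells. Each run covers bases 250 to 31 before the RefSeq start (GRCm38.p6, plus strand, 5′ to 3′), chrX:133850758-133850977 for Tnmd and chr1:134037004-134037223 for Fmod. Capitals mark E-boxes, CANNTG, which read the same way on both strands.
Tnmd: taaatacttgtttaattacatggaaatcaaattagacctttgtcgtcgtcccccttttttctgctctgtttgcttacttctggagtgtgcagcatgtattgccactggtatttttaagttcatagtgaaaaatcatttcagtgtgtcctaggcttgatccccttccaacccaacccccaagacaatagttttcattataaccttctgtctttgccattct
Fmod: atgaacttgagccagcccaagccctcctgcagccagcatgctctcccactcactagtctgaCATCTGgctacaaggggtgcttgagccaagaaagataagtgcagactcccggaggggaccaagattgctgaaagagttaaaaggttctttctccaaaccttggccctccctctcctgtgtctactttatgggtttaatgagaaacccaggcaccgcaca
The Fmod window held 1 E-box and the Tnmd window 0, and 62.1% of 32815 mouse promoter windows of the same 220 bases held at least 1. The match is a description of letters and not of binding. The whole Tnmd gene lies on chromosome X at 133850980 to 133865577 and Fmod on chromosome 1 at 134037254 to 134048277 (GRCm38, both plus strand). Scx lies on chromosome 15 at 76457452 to 76459458 (plus strand) and overlaps Bop1 on the opposite strand. Thbs4 lies on chromosome 13 at 92751590 to 92794818 (minus strand).

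Sarcoma 3 held 92.8% of the tenocyte-like cells. There were 17 in sarcoma 1, 16 in sarcoma 2, 538 in sarcoma 3 and 9 in sarcoma 4. As a share of stroma they made up 7.91% in sarcoma 1 (exact 95% binomial interval 4.67 to 12.4, 215 stromal cells) and 9.04% in sarcoma 2 (5.26 to 14.3, 177 cells). The share was 30.3% in sarcoma 3 (28.1 to 32.5, 1777 cells) and 5.29% in sarcoma 4 (2.45 to 9.81, 170 cells). With stroma chosen this way, the interval of sarcoma 3 lay above those of the other 3, which overlapped each other. Sarcoma 3 also held more stroma, 25.6% of its 6949 kept cells against 2.16% to 2.89% in the others, so tenocyte-like cells were 7.74% of all its kept cells. All intervals here cover counting error only, and 1 tumour from each body site means that site and animal cannot be told apart.

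Most stromal cells held 1 or 2 tendon genes, and cells became fewer with each further gene in sarcoma 3. In the stroma of sarcoma 3, 81 cells held 0 of the 8 genes, 604 held 1, 554 held 2, 293 held 3, 121 held 4, 56 held 5, 43 held 6, 25 held 7 and 0 held all 8. The threshold therefore cuts a continuous range, and 54.5% of the tenocyte-like cells of sarcoma 3 lay exactly at it. Just outside, cells with 2 genes held Fmod at 113 CPM (UMIs of the gene per 1000000 UMIs of all cells in the class), Scx at 10.2, Tnmd at 17.6 and Thbs4 at 2564. Just inside, cells with 3 genes held Fmod at 211 CPM, Scx at 51.6, Tnmd at 88.2 and Thbs4 at 3987. Depth did not separate the classes of sarcoma 3, with a median of 21174.5 UMIs in tenocyte-like cells and 21312 in the other stroma. The rule counts detected genes, so the share itself moves with depth. At 2000 UMIs per cell it was 9.29% in sarcoma 3, and 1.40%, 1.13% and 1.18% in sarcomas 1, 2 and 4.

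**Figure D1:**
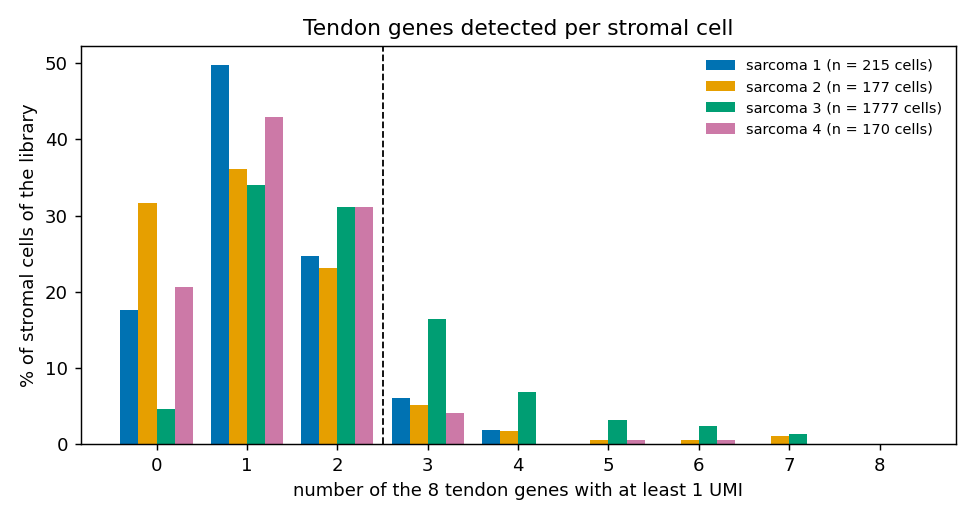
Bars give the percent of stromal cells of each sarcoma library (y axis) with 0 to 8 of the 8 tendon genes detected (x axis), and cells right of the dashed line are the tenocyte-like cells. Sarcoma 3 has 30.3% of its stroma right of the line, against 5.29% to 9.04% in the others.

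The stroma gate needs care, because it rests on 4 UMIs of 4 genes and may have let sarcoma cells through. Whether it did was not tested. Smarcb1, measured at 0.355 to 6.72 CPM outside the stroma, lay at 50.6, 80.7, 50.1 and 43.1 CPM in the tenocyte-like cells of sarcomas 1 to 4. In the other stroma it lay at 28.5, 52.0, 60.8 and 3.00 CPM. The tenocyte-like cells of all 4 libraries thus stood well above the level outside the stroma, and the other stroma of sarcoma 4 did not. A 3′ tag outside the deleted part of Smarcb1 would not check the deletion, and the labels do not give that part. Nefl, abundant outside the stroma of sarcoma 1 (1162 CPM), lay at 504 CPM in the other stroma of that library and at 7.23 in its tenocyte-like cells. Results are therefore also given without cells that held 1 or more UMIs of Cdkn2a, Nefl and Gchfr together per 10000, which left 14, 12, 484 and 6 tenocyte-like cells in sarcomas 1 to 4. No 2 libraries shared more than 20 cell barcodes.

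The levels of the 8 genes chose the cells and are given as a description. Scx lay at 36.2, 115, 160 and 3.92 CPM in the tenocyte-like cells of sarcomas 1 to 4, and between 0 and 0.294 CPM in the other stroma of all 4. Sarcoma 4 stands apart with 1 of its 9 cells holding an Scx UMI (11.1%), against 66.2% of the tenocyte-like cells of sarcoma 3. Mkx ranked the libraries differently, at 9.64, 29.96, 23.0 and 66.7 CPM, and its level in the other stroma was 0, 3.23, 2.64 and 18.5 CPM. Sarcoma 4 was highest for Mkx in both classes. Cells outside its stroma held Mkx too, at 30.1 CPM.

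Tnmd lay at 116, 279, 517 and 62.7 CPM in the tenocyte-like cells of sarcomas 1 to 4, against 1.84, 8.23, 0.0645 and 5.08 CPM in the other stroma. It was found in 53.7% of the tenocyte-like cells of sarcoma 3 and in 1 of the 685 other stromal cells. Outside the stroma of sarcoma 3, 9.94% of cells held a Tnmd UMI at a median depth of 19142 UMIs. Thinned to 2000 UMIs, those shares were 33.6% in tenocyte-like cells, 0 in other stroma and 5.15% outside the stroma.

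Among the matrix genes, Fmod lay at 181, 260, 434 and 1349 CPM in tenocyte-like cells and at 1.32, 1.47, 9.03 and 106 CPM in the other stroma. Sarcoma 4 was highest in both classes, and Fmod lay at 356 CPM in its cells outside the stroma, so Fmod marks tenocyte-like cells least sharply there. Thbs4 lay at 1882, 1424, 5951 and 2137 CPM in tenocyte-like cells and at 883, 128, 1709 and 5.31 CPM in the other stroma. Thbs4 was widespread outside the stroma of sarcoma 1, at 1365 CPM in 92.0% of cells. It could therefore count toward the 3 genes of nearly any cell of that library. In sarcoma 3, stromal cells with just 1 tendon gene held Thbs4 at 1953 CPM and each of the others at 10.3 CPM or less. There too Thbs4 could count toward the 3 genes of many stromal cells. Without Thbs4 in the rule, 5, 7, 253 and 5 cells of sarcomas 1 to 4 held 3 or more of the remaining genes.

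Cilp2, Chodl and Kera came last. Cilp2 lay at 0, 9.22, 34.1 and 58.8 CPM in the tenocyte-like cells and Chodl at 0, 18.4, 51.2 and 19.6 CPM. Kera was detected only in sarcoma 3 among the tenocyte-like cells, at 3.08 CPM and in 24 of 538 cells. None of the 3 genes had a UMI in the other stroma of any library, where the rule allows at most 1 tendon gene per cell.

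**Figure D2:**
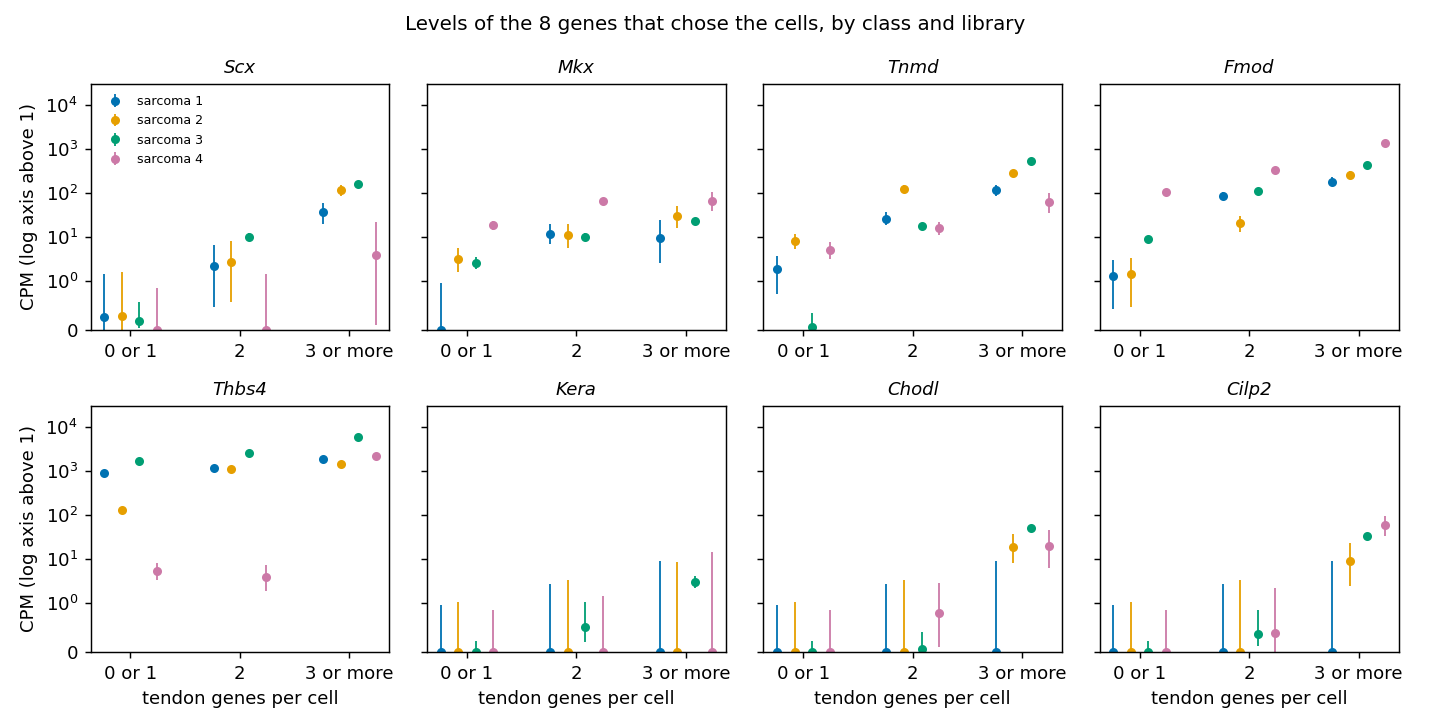
Points give the CPM (y axis, logarithmic above 1) of each of the 8 genes that chose the cells, in stroma with 0 or 1, 2, or 3 or more of them (x axis), for sarcomas 1 to 4, and bars are 95% Poisson intervals. Scx and Tnmd are lowest in sarcoma 4 and Fmod and Mkx are highest there, among cells with 3 or more genes.

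The tenocyte-like cells of sarcoma 3 held the tendon genes in different combinations, which are given as a description. Cells were chosen for holding 3 or more of these genes, and 54.5% of them held exactly 3. A cell without a UMI of a gene may also still express it. The combinations therefore cannot show whether the genes are expressed as a single block. In sarcoma 3 the most frequent combination was Scx, Fmod and Thbs4 alone, in 116 tenocyte-like cells. Mkx, Fmod and Thbs4 made up 61 cells, Tnmd, Scx, Fmod and Thbs4 59, and Tnmd, Fmod and Thbs4 57. A group of 25 cells held every gene but Kera. Thbs4 was found in 98.5% of the tenocyte-like cells and Fmod in 92.8%, while Scx reached 66.2%, Mkx 35.3% and Cilp2 23.4%. Of the 62 cells with Chodl, 52 also held Tnmd and 51 held Scx. Of the 190 cells with Mkx, 92 held Tnmd and 94 held Scx.

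Genes outside the rule were then compared between the 2 classes of sarcoma 3, where cells are many but the library is 1 and no test can be made. A gene was counted where the classes were at least 2-fold apart, their 95% Poisson intervals did not overlap and the higher class reached 50 CPM. Of 3189 genes that reached this level, 30 were higher in tenocyte-like cells (0.941%) and 55 were lower (1.72%). The median log2 difference of all these genes was 0.01. These cells were picked by their own transcripts, so the values describe which genes accompany the 8.

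Col11a1, a minor fibrillar collagen of tendon and cartilage that nucleates fibrils, was among the higher genes of sarcoma 3 and was also higher in the other 3 libraries. It lay at 159, 159, 338 and 43.1 CPM in the tenocyte-like cells of sarcomas 1 to 4, against 2.90, 4.41, 42.8 and 2.08 CPM in the other stroma. The lowest tenocyte-like value, 43.1 CPM in sarcoma 4, rests on 11 UMIs and barely exceeded the highest value of the other stroma, 42.8 CPM in sarcoma 3. In sarcoma 3, 81.6% of tenocyte-like cells held a Col11a1 UMI against 25.4% of the other stroma. Its log2 fold change over sarcomas 1 to 3 was 4.21 ± 0.52 (SE), but it did not pass edgeR's quasi-likelihood test with Benjamini-Hochberg adjustment over all genes (adjusted p = 0.0855).

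Col22a1, a collagen of the muscle-tendon junction, lay at 53.8 CPM in the tenocyte-like cells of sarcoma 3 (95% interval 49.9 to 58.0) and at 0.193 in the other stroma (0.0399 to 0.565, 3 UMIs). Sarcoma 2 tenocyte-like cells held 34.6 CPM and sarcomas 1 and 4 held 0. Ptx4, a long pentraxin gene, lay at 51.0 CPM against 0.580 in sarcoma 3, at 25.4 against 0 in sarcoma 2, and at 0 in both classes of sarcomas 1 and 4. Both genes sat in a minority of cells, 19.3% for Col22a1 and 21.9% for Ptx4.

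Growth-related and imprinted genes followed. Ptn, the secreted growth factor pleiotrophin, lay at 364, 270, 774 and 62.7 CPM in the tenocyte-like cells of sarcomas 1 to 4 and at 63.2, 165, 76.4 and 28.6 CPM in the other stroma. Mest, an imprinted gene active in growing mesenchyme, lay at 193, 325, 463 and 0 CPM against 57.2, 12.3, 50.3 and 0.462 CPM. Both were higher in the tenocyte-like cells of sarcomas 1 to 3, and in sarcoma 4 Mest had 2 UMIs in the other stroma and 0 in the tenocyte-like cells. Neither passed the test over the 3 libraries, with a log2 fold change of 2.26 ± 0.49 for Ptn (edgeR adjusted p = 0.313) and 3.18 ± 0.49 for Mest (edgeR adjusted p = 0.123).

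Some higher genes of sarcoma 3 lay the other way in part of the other libraries. Rbp4, the plasma retinol carrier, lay at 91.1 CPM against 12.5 in sarcoma 3, but at 9.64 against 12.6 in sarcoma 1 and 13.8 against 26.7 in sarcoma 2, and sarcoma 4 held 7.84 against 3.69. Mmp13, a collagenase, lay at 234 against 34.2 CPM in sarcoma 3, at 16.9 against 31.1 in sarcoma 1 and at 175 against 242 in sarcoma 2. The cartilage proteoglycan gene Acan lay at 55.7 against 10.9 CPM in sarcoma 3 and at 2.30 CPM or less in both classes of the other libraries. Pamr1, Edil3 and Cthrc1 were 5.41-fold, 3.58-fold and 3.11-fold higher in sarcoma 3 and were higher in the tenocyte-like cells of the other 3 libraries too. Some of those gaps were small: Pamr1 lay at 31.3 against 23.7 CPM in sarcoma 1. In sarcoma 2 Edil3 lay at 62.2 against 50.3 CPM and Cthrc1 at 1049 against 938. In sarcoma 4 Cthrc1 lay at 294 against 27.2 CPM, but Pamr1 and Edil3 rest on 5 and 3 UMIs in the tenocyte-like cells. The matrix protein gene Tnn was 2.90-fold higher in sarcoma 3 and had no UMI in the tenocyte-like cells of sarcoma 2, and sarcoma 1 held 7.23 against 6.32 CPM.

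The chemokine gene Ccl8 and the activin subunit gene Inhba passed by size but rest on few cells. Ccl8 was 3.07-fold higher, at 180 against 58.6 CPM, and 1 tenocyte-like cell carried 1816 of its 2276 UMIs (79.8%). Without cells of the highest doublet scores it was lower in tenocyte-like cells, by a log2 difference of -0.77. For Inhba, at 195 against 45.1 CPM, 5 cells carried 62.2% of the UMIs, and its log2 difference turned to -0.52 when cells were thinned to 5000 UMIs before being chosen.

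Genes lower in the tenocyte-like cells were led by Saa3, an acute-phase protein gene. It lay at 2.41, 39.2, 161 and 0 CPM in the tenocyte-like cells of sarcomas 1 to 4 and at 87.5, 210, 1079 and 0 CPM in the other stroma. In sarcoma 3 it was detected in 14.7% of tenocyte-like cells and 19.9% of the other stroma, and 5 cells carried 59.96% and 39.6% of its UMIs in the 2 classes. It missed the threshold over sarcomas 1 to 3 (log2 fold change -2.84 ± 0.29, edgeR adjusted p = 0.0502). Hp, haptoglobin, lay at 96.4, 279, 101 and 0 CPM against 128, 394, 505 and 0.462 CPM. In sarcoma 3, 20.8% of tenocyte-like cells and 34.2% of the other stroma held Hp, and 5 cells carried 43.5% and 38.6% of its UMIs. The iron transport gene Lcn2 was 3.00-fold lower in sarcoma 3 and the ceruloplasmin gene Cp 3.29-fold lower. Each was lower in the tenocyte-like cells of sarcomas 1 and 2 too, but the gaps for Hp and Cp there were small. The log2 differences were -0.40 and -0.50 for Hp and -0.59 and -0.54 for Cp, which had 5 UMIs in the tenocyte-like cells of sarcoma 1. Lcn2 in sarcoma 1 had 0 UMIs in those cells and 7.12 CPM in the other stroma.

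Efemp1, an elastic fibre adaptor of loose connective tissue, was uniform across libraries. It lay at 67.5, 41.5, 64.8 and 31.4 CPM in the tenocyte-like cells and at 196, 196, 215 and 76.0 CPM in the other stroma, and every tenocyte-like value was below every value of the other stroma. Its log2 fold change of -1.79 ± 0.19 missed the threshold (edgeR adjusted p = 0.0510). Pla1a, a phospholipase gene, was 3.24-fold lower in sarcoma 3 and Lgi2, a secreted leucine-rich protein gene, 3.07-fold lower. Both were lower in sarcomas 1 and 2 and higher in sarcoma 4. Reg1 was 3.65-fold lower in sarcoma 3. Aldh1a2, a retinoic acid synthesis enzyme, and Gchfr were 3.92-fold and 3.10-fold lower in sarcoma 3 and lay the other way in sarcoma 2. The call of Gchfr, at a log2 difference of -1.63, was lost when cells with sarcoma genes, itself among them, were left out (-0.15). It was also lost without the deepest cells (-1.18) and with 8 stroma UMIs required (-1.05).

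**Figure D3:**
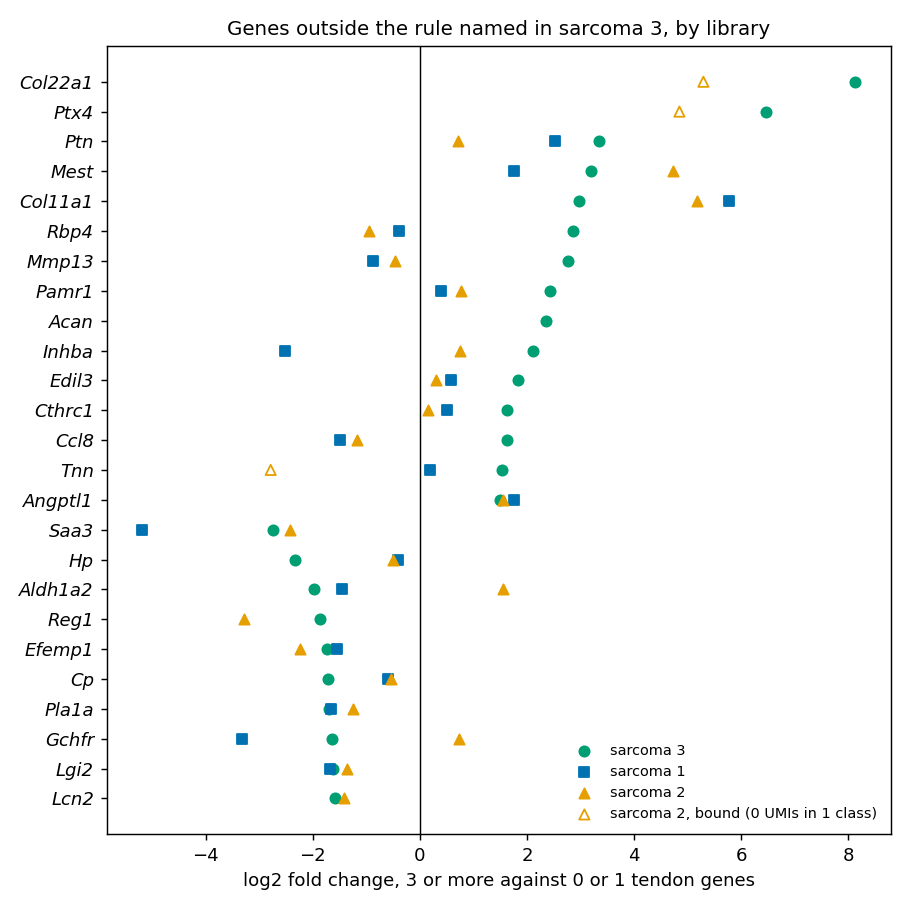
Log2 fold changes (x axis) between tenocyte-like cells and other stroma are shown for the 25 named genes outside the rule (rows) in sarcomas 3, 1 and 2, and open symbols mark genes with 0 UMIs in 1 class. Col11a1, Mest, Ptn and Angptl1 lie right of 0 in all 3 libraries and Saa3, Efemp1, Pla1a and Lgi2 lie left of 0 in all 3, while Rbp4, Mmp13 and Ccl8 change side.

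The direction found in sarcoma 3 was looked up in the libraries that had not named the genes. Of the 30 higher genes, 27 could be compared in both sarcomas 1 and 2, and 17 were higher in both (63.0%), where 24.2% of all 3179 genes of this level were. Of the 55 lower genes, 42 of 54 were lower in both (77.8%), against 28.2% of all genes. In sarcoma 4, 18 of 24 higher genes were again higher (75.0%), against 52.5% of all genes, and 17 of 47 lower genes were lower (36.2%), against 47.5% of all genes. Sarcoma 4 held 9 tenocyte-like cells, and its other stroma had Smarcb1 at 3.00 CPM.

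Over sarcomas 1 to 3, each with at least 10 cells of both classes, edgeR's quasi-likelihood test with the library as a block called 2 genes higher and 2 lower of 10883 tested outside the rule (0.0184% each). Without adjustment 586 genes had p under 0.05, 276 higher and 310 lower. Angptl1, a secreted angiopoietin-like protein gene (chromosome 1, 156838562 to 156861078, plus strand, overlapping Ralgps2 on the other strand), lay at 270, 124 and 379 CPM in the tenocyte-like cells. The other stroma held 79.6, 42.6 and 134 CPM. It rose in 3 of 3 libraries by a log2 fold change of 1.61 ± 0.15 (SE, edgeR adjusted p = 0.0443), and sarcoma 4, outside the test, held 333 against 11.8 CPM. A fit with sarcoma 4 added did not call Angptl1 (edgeR adjusted p = 0.493) and called 0 genes in either direction, with 508 at an unadjusted p under 0.05. Scube2, a secreted factor that releases Hedgehog proteins from cells, lay at 33.7, 20.7 and 38.5 CPM against 1.32, 2.94 and 3.80 CPM. It rose by 3.47 ± 0.34 (SE, edgeR adjusted p = 0.0465), and sarcoma 4 held 0 against 0.231 CPM.

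Tnxb, the matrix glycoprotein tenascin-X (chromosome 17, 34670535 to 34719815, plus strand), lay at 14.5, 13.8 and 9.41 CPM in the tenocyte-like cells of sarcomas 1 to 3 against 111, 61.7 and 42.6 CPM in the other stroma. It fell in 3 of 3 libraries (log2 fold change -2.32 ± 0.21, edgeR adjusted p = 0.0443). Sarcoma 4 lay the other way, at 11.8 against 0.693 CPM. Cldn5, a tight junction gene of endothelium, lay at 2.41, 2.30 and 0.0791 CPM against 99.1, 17.0 and 3.68 CPM and fell by 4.81 ± 0.44 (edgeR adjusted p = 0.0443). The 10 endothelial markers, Cldn5 among them, summed to 16.9, 16.1, 9.25 and 7.84 CPM in the tenocyte-like cells of sarcomas 1 to 4. In the other stroma they summed to 242, 32.6, 52.4 and 11.5 CPM. Markers that lay higher in the tenocyte-like cells numbered 0, 2, 0 and 1 in sarcomas 1 to 4. In those cells 5, 7, 2 and 8 of the 10 had no UMI. The part of these markers in the other differences was not tested. Scube2 and Cldn5 stayed under the 50 CPM set for naming or reached it in 1 library only, and were named after their values were seen.

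The calls depend on the choice of libraries and cells. Without sarcoma 3 neither Angptl1 (edgeR adjusted p = 0.109) nor Tnxb (adjusted p = 0.108) passed, and 7 genes were then higher and 2 lower. Col11a1 (log2 fold change 5.47, edgeR adjusted p = 0.00213) and Col12a1 (1.89, adjusted p = 0.0356) were among the 7. Without sarcoma 1, 67 genes were higher and 83 lower, without sarcoma 2, 19 and 34, and without cells that held sarcoma genes 25 were higher and 50 lower. In that last comparison Col11a1 (log2 fold change 4.16, edgeR adjusted p = 0.00396), Mest (2.88, 0.00459), Col12a1 (1.24, 0.00282), Saa3 (-3.45, 0.00354) and Efemp1 (-1.93, 0.000543) all passed, as did Angptl1 (1.27, 0.00459) and Tnxb (-2.91, 0.000156).

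Within the stroma of sarcoma 3, some genes outside the rule rose or fell with the number of tendon genes and others kept no steady order. Genes named by the class difference of this library, such as Col11a1, Angptl1 and Mest, had their direction between few and many tendon genes set beforehand. Col11a1 lay at 44.0, 42.6, 90.4, 196, 392 and 638 CPM in cells with 0, 1, 2, 3, 4 and 5 to 7 of them. Angptl1 lay at 26.9, 149, 181, 306, 402 and 540.5 CPM over the same 6 classes, and Mest at 30.6, 53.1, 91.1, 273, 562 and 838 CPM. Col1a1, the main tendon collagen, went from 8308 CPM in cells with 0 genes to 17179 in those with 5 to 7, and Col12a1, which coats collagen fibrils, from 207 to 598. Col11a1, Angptl1, Mest, Col1a1 and Col12a1 were higher at every step, except that Col11a1 was level between 0 and 1 genes. Tnc was among the genes with no steady order, at 177, 367, 599, 792, 679 and 628 CPM.

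Other genes differed most between cells with 4 and with 5 to 7 genes. Col22a1 lay at 2.31 CPM in cells with 3 tendon genes, 11.5 with 4 and 230 with 5 to 7. Ptx4 lay at 2.16, 21.6 and 206 CPM, and Chad, a cartilage and tendon matrix protein gene, at 5.91, 2.70 and 52.1 CPM. Comp, a pentameric matrix protein of tendon and cartilage, lay at 566 to 886 CPM in cells with 0 to 4 genes and at 1622 in those with 5 to 7. The median depth of the 124 cells with 5 to 7 genes was 19650 UMIs, no higher than that of the other classes.

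Going the other way, Pdgfra, the receptor that marks fibroblast progenitors, lay at 413, 401, 367, 312, 259 and 139 CPM. The surface antigen gene Ly6a lay at 1044 CPM in cells with 0 genes and 243 with 5 to 7, tetranectin (Clec3b) at 783 and 192, Efemp1 at 328 and 5.47, and Hp at 886 and 43.7. Decorin (Dcn), a proteoglycan of most fibroblasts, went from 7469 to 4571 CPM. Saa3 was lowest with 4 genes, at 16.9 CPM, and lay at 29.5 with 5 to 7.

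**Figure D4:**
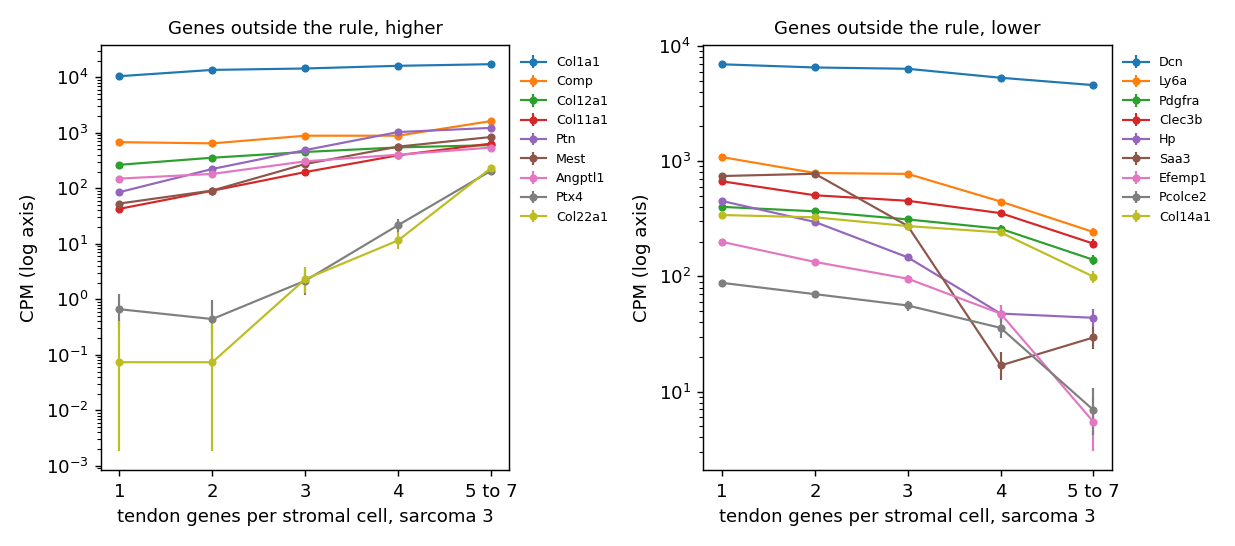
CPM (y axis, logarithmic) of genes outside the rule in stroma of sarcoma 3 with 1, 2, 3, 4 and 5 to 7 tendon genes (x axis), with 95% Poisson intervals. Col11a1 and Mest climb at each step, Col22a1 and Ptx4 climb mostly at the end (to 230 and 206 CPM), and Pdgfra, Clec3b and Efemp1 decline to 139, 192 and 5.47 CPM.

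Gene lists placed these genes in context. Over all 3189 genes of this level 0.941% were higher and 1.72% lower in sarcoma 3, the shares to set beside the count of each list there. Of 27 tendon fibroblast genes outside the rule, 21 reached the level in sarcoma 3, 3 were higher (Col11a1, Tnc and Ptx4) and 1 lower (Pcolce2), with a median log2 difference of 0.09 against 0.01 over all genes. The call of Tnc, at a log2 difference of 1.09, was lost after thinning to 5000 UMIs (0.04), without the deepest cells (0.41), without Thbs4 in the rule (0.47) and with 8 stroma UMIs required (0.97). Most of this list hence differed little between classes: Cilp lay at 1426 against 1100.3 CPM, Ctsk at 958 against 930 and Thbs3 at 174 against 192. Over sarcomas 1 to 3 its median was 0.73 against -0.02 over all genes, and 0 of 21 tested genes passed edgeR's test. That test called 2 genes higher and 2 lower of all 10883, so 0 calls does not set the list apart. Comp, for one, lay at 161, 76.1, 1045 and 376 CPM against 25.6, 13.2, 663 and 0.924 CPM (log2 fold change 1.80 ± 0.42, edgeR adjusted p = 0.357).

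Fibrillar collagens had 1 of 8 genes higher in sarcoma 3 (Col11a1) and other collagens 1 of 14 (Col22a1), against 0.941% of all genes. Col1a1 lay at 14951, 11692, 15382 and 2623 CPM in the tenocyte-like cells and at 5515, 9450.0, 10180.3 and 1148 in the other stroma, higher in all 4 libraries. Col3a1, the collagen of loose and healing tissue, lay at 16021 against 17071 CPM in sarcoma 3. Of 9 small leucine-rich proteoglycans outside the rule, Aspn and Ecm2 were higher and none lower. Aspn, which binds collagen, lay at 1960, 738, 2334 and 572 CPM against 492, 363, 832 and 238 CPM (log2 fold change 1.52 ± 0.21, edgeR adjusted p = 0.111).

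Progenitor fibroblast genes had 0 higher and 4 lower of 14 (Pi16, Apoe, Cxcl12 and Ly6c1), against 0.941% and 1.72% of all genes. Their median log2 difference was -0.82 against 0.01 over all genes. Pi16 lay at 174, 516, 610 and 153 CPM against 425, 337, 1457 and 40.6 CPM, so it was lower in sarcomas 1 and 3 only. Inflammatory fibroblast genes had 5 lower of 13 (Hp, Saa3, Lcn2, C3 and Mmp3) and 1 higher (Mmp13). The complement gene C3 lay at 222, 394, 505 and 27.4 CPM against 381, 876, 1210 and 16.6 CPM. Myofibroblast genes had Tagln and Cthrc1 higher of 11, and Acta2, smooth muscle actin, lay at 131 against 111 CPM in sarcoma 3 and at 880 against 216 in sarcoma 1. Growth factor genes had Ptn and the ERK phosphatase gene Dusp6 higher of 13, and 10 TGF-beta and BMP genes had only Gdf10, lower. None of these lists had a gene past edgeR's test over sarcomas 1 to 3, which called 2 genes higher and 2 lower of all 10883. Their medians there were -0.64 for progenitor, -0.43 for inflammatory and 0.80 for myofibroblast genes, against -0.02 over all genes.

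Markers of other tissues were also counted. The 17 cartilage genes summed to 270, 235, 2352 and 494 CPM in the tenocyte-like cells of sarcomas 1 to 4 and to 205, 66.1, 1987 and 37.6 CPM in the other stroma. In sarcoma 3 both sums came mostly from Chil1, at 1047 against 1140 CPM, and Comp, which is also on the tendon list. Chil1 had no UMI in the tenocyte-like cells of sarcomas 1, 2 and 4. In sarcoma 3, 13 of the 17 lay higher and 5 reached the level, of which Acan was counted. Col2a1, the main cartilage collagen, had 67 UMIs in the tenocyte-like cells of sarcoma 3 and 0 in the other stroma, and Sox9 lay at 80.5 against 79.8 CPM. None of 2 bone and 8 synovial genes was counted in either direction, and no muscle, glial, blood or keratinocyte marker reached the level. The 18 genes induced by tissue dissociation had none counted in sarcoma 3, but 16, 15, 16 and 13 of them lay higher in the tenocyte-like cells of sarcomas 1 to 4. Their summed level was 14888, 11927, 12963 and 11303 CPM against 11376, 9898, 11867 and 7476. G2/M genes summed to 21.7, 800, 143 and 54.9 CPM in tenocyte-like cells and to 618, 176, 134 and 316 in the other stroma. They were far higher in the tenocyte-like cells of sarcoma 2, nearly level in sarcoma 3 and lower in sarcomas 1 and 4. Whether dissociation or cycling genes had a part in the differences was not tested.

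Cells with the same tendon genes in resting muscle gave a reference. In the muscle library 560 cells held 3 or more of the 8 genes, with a median of 7 genes at 6820 UMIs, against a median of 3 genes at 21174.5 UMIs in the tenocyte-like cells of sarcoma 3. The muscle cells were taken without the stroma gate. With 1 library a side there is no test, and body site, tumour, genotype and depth cannot be told apart. Tnmd lay at 3739 CPM in the muscle cells against 517 in sarcoma 3, Scx at 865 against 160, Mkx at 88.9 against 23.0 and Fmod at 4855 against 434. Kera lay at 1345 against 3.08 CPM, Chodl at 1428 against 51.2 and Cilp2 at 1066 against 34.1. Thbs4 was closest, at 11067 against 5951 CPM.

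The 8 genes chose the cells on both sides, and a limit of 5 or more genes keeps 124 of the sarcoma 3 cells and 505 of the muscle cells, so their levels are a description under either limit. Among cells with 5 or more genes, Tnmd lay at 1749 CPM in sarcoma 3 and 4211 in muscle, Scx at 460 and 972, and Thbs4 at 10362 and 12232. Kera kept a wide gap, at 9.84 and 1519 CPM. All 8 genes were lower in sarcoma 3 under either count.

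Outside the rule, 354 of 3484 genes were at least 2-fold higher in the tenocyte-like cells of sarcoma 3 than in the muscle cells (10.2%) and 297 were lower (8.52%). The median log2 difference was 0.07. Higher genes included Reg3g, a secreted lectin, at 1142 against 0.461 CPM, and Hp, at 101 against 0.230. Chil1, a chitinase-like protein gene, lay at 1047 against 1.84 CPM, Epyc, a cartilage proteoglycan gene, at 79.2 against 0.230, Ccl5 at 74.2 against 0.230 and Slpi, a protease inhibitor gene, at 119 against 0.230. Mmp13 (234 CPM) and Ctla2a (549 CPM) had 0 UMIs in the muscle cells, which makes them at least 339-fold and 794-fold higher against a floor of 3 UMIs in the class. Most of these belonged to the stroma of sarcoma 3 at large, since the other stroma held Reg3g at 1461 CPM, Chil1 at 1140 and Ctla2a at 488. It also held Hp at 505 CPM, Slpi at 112, Ccl5 at 112 and Epyc at 54.9, while Mmp13 lay at 34.2. Tenocyte-like cells of other sarcomas held several of these genes too. Ctla2a lay there at 268, 23.0 and 102 CPM in sarcomas 1, 2 and 4, and Reg3g at 761 CPM in sarcoma 2 only. In sarcomas 1 and 2 Hp lay at 96.4 and 279 CPM, Slpi at 133 and 25.4 and Mmp13 at 16.9 and 175, and all 3 had no UMI in sarcoma 4. Chil1, Epyc and Ccl5 had no UMI in the tenocyte-like cells of the other sarcomas.

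Lower genes were led by Myoc, a secreted glycoprotein, at 1.26 against 934 CPM, and by Scg3, Limch1, Spock3 and Gm525, each at 1.03 CPM or less in sarcoma 3. Col11a2, partner chain of Col11a1, lay at 2.45 against 191 CPM in muscle and at no more than 4.61 CPM in the tenocyte-like cells of any sarcoma. The position genes Hoxa10 and Hoxc10, active in the hind end of the body, lay at 69.6 and 74.0 CPM in hindlimb muscle. In sarcomas 1 to 3, from shoulder and head, Hoxa10 had no UMI and Hoxc10 at most 0.633 CPM, while the tenocyte-like cells of sarcoma 4, from the hip, held 58.8 and 122 CPM.

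All 12 inflammatory fibroblast genes of sufficient level were higher in sarcoma 3 than in the muscle cells, with a median log2 difference of 4.24 against 0.07 over all genes. Of all 3484 genes, 10.2% were higher and 8.52% lower. Collagen processing genes had 8 of 20 higher, among them Lox, P4ha2 and Plod2, and 2 lower. Myofibroblast genes had 6 of 12 higher and 1 lower, and Postn, a matrix protein of healing tissue, lay at 6814 against 1066 CPM. Of 25 tendon fibroblast genes outside the rule, none were higher and 9 were lower, among them Col11a1, Col11a2, Chad and Ptx4. The muscle cells held a median of 7 tendon genes and those of sarcoma 3 a median of 3. In sarcoma 3 stroma with 3 and with 5 to 7 tendon genes, Col11a1 lay at 196 and 638 CPM and Col11a2 at 0.721 and 9.11. Chad lay at 5.91 and 52.1 CPM and Ptx4 at 2.16 and 206. The part of this difference in gene number was not tested. Proteoglycans split, with Lum at 3082 against 692 CPM and Aspn at 2334 against 689, but Dcn at 5708 against 14639 and Ogn at 364 against 1539. Col3a1 lay at 16021 against 3649.7 CPM and Col1a1 at 15382 against 19172. Dissociation genes had 10 of 18 lower in sarcoma 3 (summed 12963 against 30844 CPM) and 2 higher, and their part in the other differences was not tested.

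**Figure D5:**
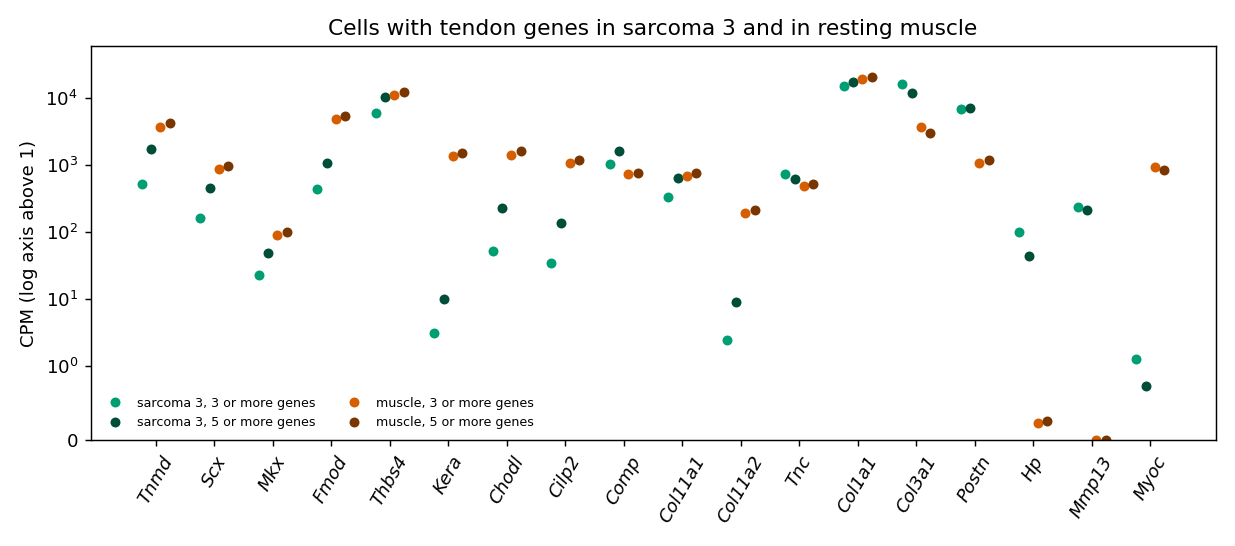
CPM (y axis, logarithmic above 1) of the 8 rule genes and 10 others (x axis) in cells with tendon genes of sarcoma 3 and of the muscle library, with 3 or more and with 5 or more of the 8 genes. The 8 rule genes are lower in sarcoma 3 in both comparisons, Thbs4 and Col1a1 are close, Col3a1, Postn, Hp and Mmp13 are higher, and Col11a2 and Myoc are lower.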

How the data were processed

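Per the labels, sorted cells went through 10x Genomics 3′ library preparation. Per the file headers, the authors counted UMIs with Cell Ranger 6.0.1, and the submitters' processing notes name mm10 as the genome. The deposited values are raw UMI counts, with 28001 features including 3 transgenes. Not given in the sources used here are the annotation release and cell calling settings. No barcode held fewer than 500 UMIs. Libraries held 64061069 (muscle) and 151903246 to 213271163 (sarcomas) UMIs.

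The tenocyte-like cells, gene lists and tests were chosen with earlier results of these data known. Counts were summed per library and class. Sums of sarcomas 1 to 3 (at least 10 cells of each class) were tested with edgeR 4.0.16 in R 4.3.3 (quasi-likelihood, TMM, filterByExpr, library block, Benjamini-Hochberg at 0.05), with 13 rule genes kept out of the counts. The block is the library itself, and its 2 classes deviated together (correlations 0.181, 0.285 and 0.580). Simulated counts with 200 changed genes gave 52.2%, 92.5% and 98.5% recovered at log2 changes of 1, 2 and 3 (67, 67 and 66 genes). They also gave 23 false calls among 10693 unchanged genes. As a share of all calls, the false calls exceeded the 0.05 aimed at. Other comparisons have 1 library a side and use CPM with exact Poisson 95% intervals. Named genes were the 15 largest higher and 10 largest lower folds in sarcoma 3, edgeR calls reaching 50 CPM, the 8 largest folds each way against muscle, the rule genes, and list members by level. Alternatives were DESeq2 1.42.0, limma-voom 3.58.1, other scaling, filters, cell gates, thinning and leaving out each sarcoma. Doublets were not removed. Scrublet (scanpy 1.11.5) called 0, 2, 142 and 0 cells in sarcomas 1 to 4, too few in 3 of them for its calls to be used, and the highest 6% of scores were removed as an alternative. Gene positions are from GENCODE M21, matched for 27722 of 28001 features (99.0%), and promoters from RefSeq.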

Additional observations from a re-analysis of the deposited data

Results flagged for a closer look

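In 17 measures taken over the 4 sarcomas, the highest or lowest library was set against the spread of the others by Dixon's ratio, which chance exceeds in about 1 of 20 groups. Sarcoma 3 stood apart in 4 of them, each time as the highest. These were the share of stroma that was tenocyte-like (30.3%), the share of kept cells (7.74%), Thbs4 in tenocyte-like cells (5951 CPM) and Kera in the same cells (3.08 CPM). The rule uses both genes and sets both shares, so these values describe the selected cells. The Kera value rests on 24 cells of 538, and the other libraries, with 9 to 17 tenocyte-like cells each, had 0 Kera UMIs.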

How the results depend on the processing

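The share of stroma in sarcoma 3 that was tenocyte-like moved from 30.3% to 61.5% with at least 2 genes, 13.8% with at least 4, 9.29% and 14.7% after thinning to 2000 and 5000 UMIs, and 14.2% without Thbs4 (chosen after seeing the data). Counts of higher and lower genes in sarcoma 3 went from 30 and 55 to 111 and 178 for at least 4 genes against 0, 76 and 138 after thinning to 5000 UMIs, 52 and 107 without Thbs4, and 112 and 114 at 10 CPM, with 18 higher at 100 CPM. Inhba turned to -0.52 after thinning. Ccl8 turned to -1.80 with at least 4 genes, -1.43 after thinning, -0.77 without high Scrublet scores, -0.77 without the deepest cells and -1.48 without Thbs4, and 1 cell held 79.8% of its UMIs. The 354 higher and 297 lower genes against muscle stayed within 1.5 times under every alternative run. Counts over sarcomas 1 to 3 (edgeR, 2 higher and 2 lower) were 30 and 36 with DESeq2, 17 and 27 with limma-voom, 213 and 221 with no filter, 6 and 9 without high Scrublet scores, and 25 and 50 without cells with sarcoma genes (added after seeing the data). Library-size scaling gave 6 lower. With no replicate block for the library, 0 were higher and 0 lower (259 at an unadjusted p under 0.05 in edgeR), and with 5 members enough, which adds sarcoma 4, also 0 and 0 (508 unadjusted). Leaving out 1 sarcoma gave 7 to 67 higher and 2 to 83 lower. The cause of these changes was not tested. Limits of at least 20 cells per library, 4 genes against 0, thinning to 5000 UMIs and the rule without Thbs4 left fewer than 2 libraries with enough cells, so the test was not run. Depth limits every detection share, since a cell with 0 UMIs of a gene may still express it.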

Other observations

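Cells with 3 or more tendon genes were also found outside the stroma gate, 266 in sarcoma 3 and 1, 10 and 78 in sarcomas 1, 2 and 4. Those of sarcoma 3 held Tnmd at 537 CPM, Scx at 64.8, Mkx at 67.5 and Fmod at 373, and Comp, outside the rule, at 568. Smarcb1 lay at 18.1 CPM in them, between the 50.1 of the tenocyte-like cells and the 6.72 of all cells outside the stroma. Cdkn2a lay at 148 CPM against 17.8 in the tenocyte-like cells, and Col1a1 at 5832 against 15382. Their median depth was 16951 UMIs.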
